A study of Mus musculus with 4 samples.

Results

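The hydroxysteroid sulfotransferase genes Sult2a1, Sult2a2, Sult2a3, Sult2a5 and Sult2a6 and the related Sult3a1 and Gm4794 were described in male and female mouse liver. They were taken by gene symbol, and all 7 were found among 21827 gene entries. Gm4794 is listed by RefSeq under its current symbol Sult3a2 and lies beside Sult3a1. The livers came from CD-1 mice of both sexes, aged 8 weeks, an outbred stock. Both groups were untreated, with no engineered allele named in the labels. Each sex was represented by 2 pools of RNA from 6 livers each, sequenced after poly-A enrichment by a method that keeps strand. The values used here are 1 level per gene and sex, so the spread between pools could not be computed. No level or counting interval below is set against replicate error of these pools. Whether the authors' adjusted p-value takes that error into account is not known here. Levels are log2 RPKM, the base-2 logarithm of reads scaled for transcript length and sequencing depth, and include a small value added by the authors that sets a floor for genes with no reads.

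Sulfotransferases move a sulfonate group from the donor PAPS onto a hydroxyl or amine group of a small molecule, which makes it more soluble and usually ends its hormonal activity. SULT2A enzymes act on hydroxysteroids such as dehydroepiandrosterone and on bile acids, and SULT3A1 is known for acting on amines. In rodent liver several of these genes are known for higher expression in females, under the sex-dependent pattern of growth hormone secretion.

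In these livers all 7 genes were abundant or detectable in female and close to absent in male liver. All 7 were higher in female liver at the authors' adjusted p under 0.05, against 10.2% of the 13762 genes that could be compared, and none was higher in male liver, against 7.21%. Their median normalized log2 ratio of male over female was -9.52, where the median over all compared genes was -0.02. For 3 of the genes no male reads were implied, and with these at a bound against 3 reads the median was -8.63. In bulk liver RNA, fewer cells that carry a transcript and less transcript per cell cannot be told apart.

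Sult3a1, the amine sulfotransferase gene, was the most abundant of the 7 in female liver. Its level was -0.75 log2 RPKM in male and 10.06 in female liver. It stood at rank 51 of all genes by female level and at rank 3 of the compared genes by its female-to-male ratio. The authors' deposited table gives a 2316-fold higher level in female liver (adjusted p = 1.99e-216). Taken as reads, the levels imply 6 reads in male and 16386 in female liver, and the exact 95% interval for counting error runs from 958-fold to 5684-fold. Counting intervals in this text cover counting error only, since reads copied from 1 molecule are not independent and pools and mice are not part of them.

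Gm4794, the neighbour of Sult3a1 on chromosome 10, came second in female level. It had -2.31 log2 RPKM in male and 7.85 in female liver, a 2539-fold difference in the authors' deposited table (adjusted p = 1.27e-132) and 1141-fold by the plain difference of the levels. Its implied reads were 1 in male and 2987 in female liver, so that counting allows anything from 409-fold to 90134-fold. With a single male read, the order of Gm4794 and Sult3a1 by fold cannot be resolved, and their intervals overlap.

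Sult2a1 and Sult2a2 were the most abundant of the Sult2a genes. Sult2a1 had 7.15 log2 RPKM in female liver and -3.51 in male liver, which is the floor and implies no male reads. With the male level set to a floor of 3 reads over the male pools, the female level, with 2115 implied reads, was at least 538-fold higher (adjusted p = 1.02e-111 in the authors' deposited table). Sult2a2 had 6.47 log2 RPKM in female liver and lay at its floor of -3.06 in male liver, at least 245-fold lower than in females (adjusted p = 1.24e-79 in the authors' deposited table). Both bounds fix the male level at 3 reads and leave out counting error in female liver. With counting error in both sexes, the lower ends are 438-fold and 199-fold.

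Sult2a5 and Sult2a6 were less abundant than these in female liver and had a single implied read each in male liver. Sult2a5 had -2.51 log2 RPKM in male and 5.09 in female liver, 397-fold higher in females in the authors' deposited table (adjusted p = 9.23e-57). Sult2a6 had -2.44 in male and 4.10 in female liver, 188-fold higher in females in the authors' deposited table (adjusted p = 2.99e-35). For these 2 genes the plain difference of the levels, which includes the added value, gives 195-fold and 93.2-fold. Counting allows 69.5-fold to 15384-fold for Sult2a5 and 33.0-fold to 7360.0-fold for Sult2a6.

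Sult2a3 was the exception in level. It reached only 0.25 log2 RPKM in female liver, with 14 implied reads, and lay at the floor of -3.27 in male liver. Set against the floor of 3 reads, the female level was at least 3.56-fold higher, and as low as 2.53-fold with counting error in both sexes (adjusted p = 0.000332 in the authors' deposited table). The female level of Sult2a3 was 14.4-fold below that of Sult2a6, the next gene in order, and it was the only one of the 7 below a log2 RPKM of 1 in both sexes.

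**Figure D1:**
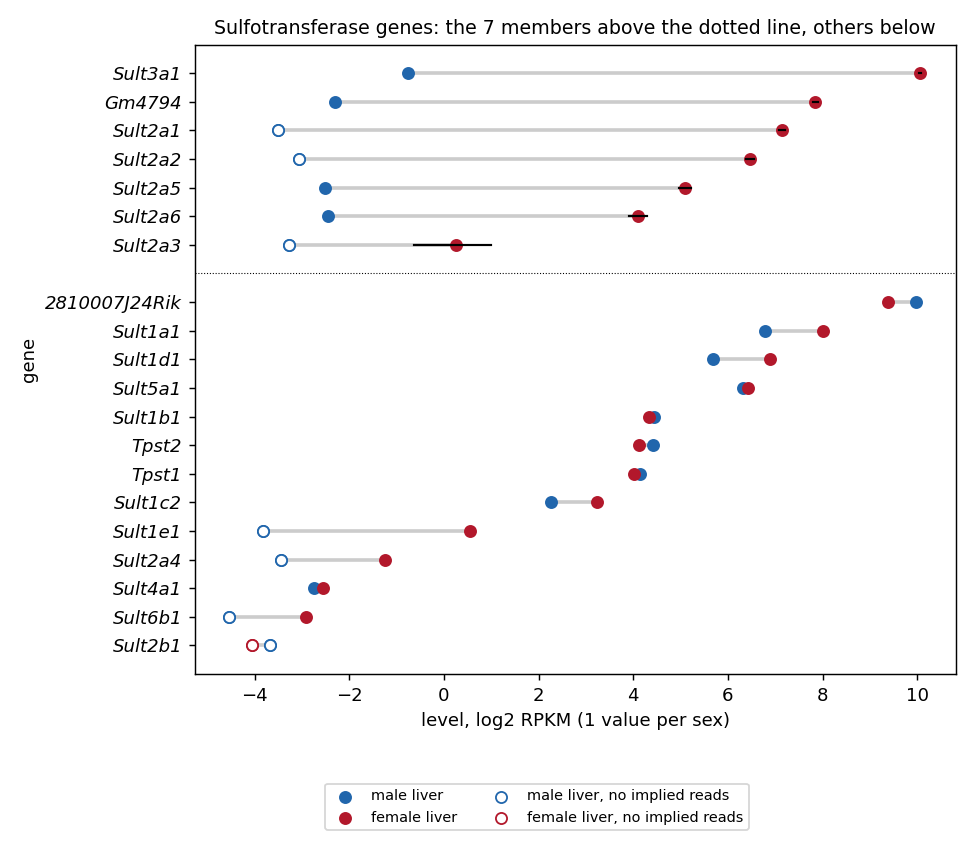
Level in male (blue) and female (red) liver, in log2 RPKM with 1 value per sex. The 7 genes described here are above the dotted line and 13 other sulfotransferase genes below it. Open points mark a sex with no implied reads and black bars the 95% counting interval of the female level. The 7 genes lie between 0.25 and 10.06 in female liver and between -3.51 and -0.75 in male liver, while 2810007J24Rik lies near the top in both sexes.

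The order of female levels was Sult3a1, Gm4794, Sult2a1, Sult2a2, Sult2a5, Sult2a6 and Sult2a3. Neighbours in that order differed by 4.63-fold, 1.62-fold, 1.60-fold, 2.59-fold, 1.99-fold and 14.4-fold in RPKM, and no pair of neighbours had overlapping counting intervals. Sult3a1 alone held 67.5% of the summed RPKM of the 7 genes in female liver, Gm4794 14.6%, Sult2a1 8.98% and Sult2a2 5.60%. The sum over the 7 genes was 1577 RPKM in female and 1.47 RPKM in male liver, the male sum including the value added at the floor.

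Some of these genes are so alike that reads cannot always be given to 1 of them. Aligned along 525 columns, the annotated transcripts of Sult2a1 and Sult2a2 were 98.5% identical, and Sult2a1 and Sult2a5 were 94.5% identical along 1021. Sult3a1 and Gm4794 were 90.9% identical along 882 columns, and Sult2a1 and Sult3a1 55.2% along 783. No source used here gives the read length, so windows of 50 and of 36 bases were tried. The share of 50-base windows found in no transcript of another gene was lowest for Sult2a2, at 37.9%, followed by 65.5% for Sult2a5 and 66.8% for Sult2a1. It was 91.6% for Sult2a3, 91.8% for Gm4794, 92.7% for Sult2a6 and 93.2% for Sult3a1. With 36 bases the shares were lower, down to 29.2% for Sult2a2. The split of reads between Sult2a1, Sult2a2 and Sult2a5, and with it their order, is therefore uncertain.

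If each read was counted once, sums over related genes do not depend on which of them it was given to. Whether reads that match several genes were dropped, split or counted more than once is not known here. Sult2a4, a close relative outside the 7 genes, is not in the sums. The 5 Sult2a genes together had 2 implied reads in male and 3842 in female liver, a 1467-fold difference at equal depth (exact 95% counting interval 406 to 12119). Sult3a1 and Gm4794 together had 7 and 19373, a 2114-fold difference (1026 to 5258). The 2 groups of genes thus lay in the same range, with overlapping intervals.

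**Figure D2:**
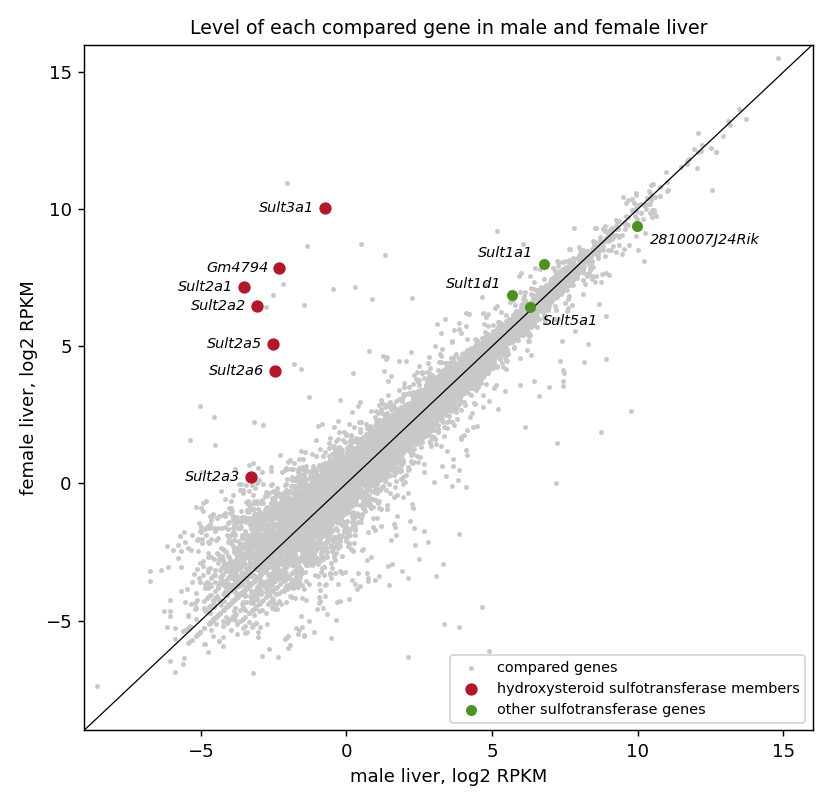
Level of each compared gene in male (horizontal axis) and female liver (vertical axis), both in log2 RPKM, with the line of equal levels. Red points are the 7 genes described here and green points 4 other sulfotransferase genes. Sult3a1 and Gm4794 reach 10.06 and 7.85 in female liver with levels below 0 in male liver, and 2810007J24Rik lies close to the line.

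Ranked by the female-to-male ratio in the authors' deposited table, Gm4794, Sult3a1 and Sult2a1 were at ranks 2, 3 and 4 of 13762 genes, after A1bg. Sult2a2 stood at rank 8, Sult2a5 at 10, Sult2a6 at 15 and Sult2a3 at 76. These ranks use the authors' ratios, which are not bounded for genes with no male reads. The genes named here as near a member in the plane of the male and female levels (Euclidean distance over these 2 log2 RPKM values) were other genes with near-absent male levels. This follows from the measure, since the members have low male levels themselves. A1bg, a plasma glycoprotein gene, lay at a distance of 1.58 from Sult3a1. Slc22a26, an organic anion transporter gene, lay 0.60 from Gm4794, and Cyp2c40, a cytochrome P450 gene, 0.30 from Sult2a2. Slc22a27 and Acot3 were the nearest to both Sult2a5 and Sult2a6, Xist and Cyp2c40 to Sult2a1, and Ntf3 and Fam71e1 to Sult2a3. Xist was also the second nearest to Gm4794 and to Sult2a2.

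The Sult2a genes lie together on chromosome 7 (mm9), where Sult2a5 (14209316 to 14256156, plus strand) and Sult2a6 (14807752 to 14840219, minus strand) mark the ends of a stretch of 630.9 kb. Between them follow Sult2a2 (14318855 to 14364985, plus strand), Sult2a1 (14381595 to 14422759, minus strand) and Sult2a3 (14652904 to 14708342, minus strand). The stretch also holds Sult2a4, which was not among the 7 genes. Sult2a4 had 5 implied reads in female and none in male liver, -1.24 and -3.44 log2 RPKM, and did not pass the test (adjusted p = 0.0651 in the authors' deposited table, which sets its ratio to 1).

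The next gene of the family, 155.8 kb beyond Sult2a6, went the other way. 2810007J24Rik, now named Sult2a8 and known to sulfate bile acids, had 9.97 log2 RPKM in male and 9.38 in female liver. The authors' deposited table puts it 1.49-fold higher in males (adjusted p = 0.00215). Its transcript was 68.8% to 70.2% identical to those of the 5 Sult2a genes, and all of its 50-base windows were its own. In male liver it stood at 1004 RPKM against a sum of 0.67 RPKM for the 5 Sult2a genes, and in female liver at 668 RPKM against 282. On the other side of the stretch, 9230107M04Rik lay 52.9 kb from Sult2a5 and at the floor in both sexes.

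Genes around the Sult2a stretch were mostly silent. Of 13 other genes within 500 kb of a Sult2a gene, 7 were at the floor in both sexes and 4 could be compared. Among all 21827 gene entries, 6590 were at the floor. Of all compared genes, 10.2% were female-higher and 7.21% male-higher. Lig1, a DNA ligase gene, was 2.33-fold higher in females by the authors' deposited table (adjusted p = 0.00285), and 2810007J24Rik was the one gene called higher in males. Lig1 was named after its value was seen.

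On chromosome 10 (mm9), Gm4794 (33486230 to 33501921, minus strand) and Sult3a1 (33577528 to 33599281, plus strand) lie 75.6 kb apart and point away from each other. Rsph4a, which encodes a radial spoke protein of motile cilia, begins 25.6 kb past the end of Sult3a1 on the same strand. It had -5.36 log2 RPKM in male liver, which implies no reads, and 1.57 in female liver, with 159 implied reads. Set against the floor of 3 reads, its female level was at least 40.5-fold higher, or 32.5-fold with counting error in both sexes (adjusted p = 4.57e-26 in the authors' deposited table).

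Zufsp, which lies 3.1 kb further on the opposite strand, was 1.66-fold higher in female liver (5.89 RPKM in male and 9.55 in female liver, adjusted p = 0.00253 in the authors' deposited table). Of 13 other genes within 500 kb of the Sult3a pair, 10 could be compared, of which Rsph4a, Zufsp and Tspyl4 (2.35-fold in the authors' deposited table) passed as female-higher. None of the 10 passed as male-higher, although 4 had ratios in that direction. The shares over all compared genes were 10.2% female-higher and 7.21% male-higher. Tspyl4 was named after its value was seen. On the side of Gm4794, Clvs2 lay 141.7 kb away and at the floor in both sexes.

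**Figure D3:**
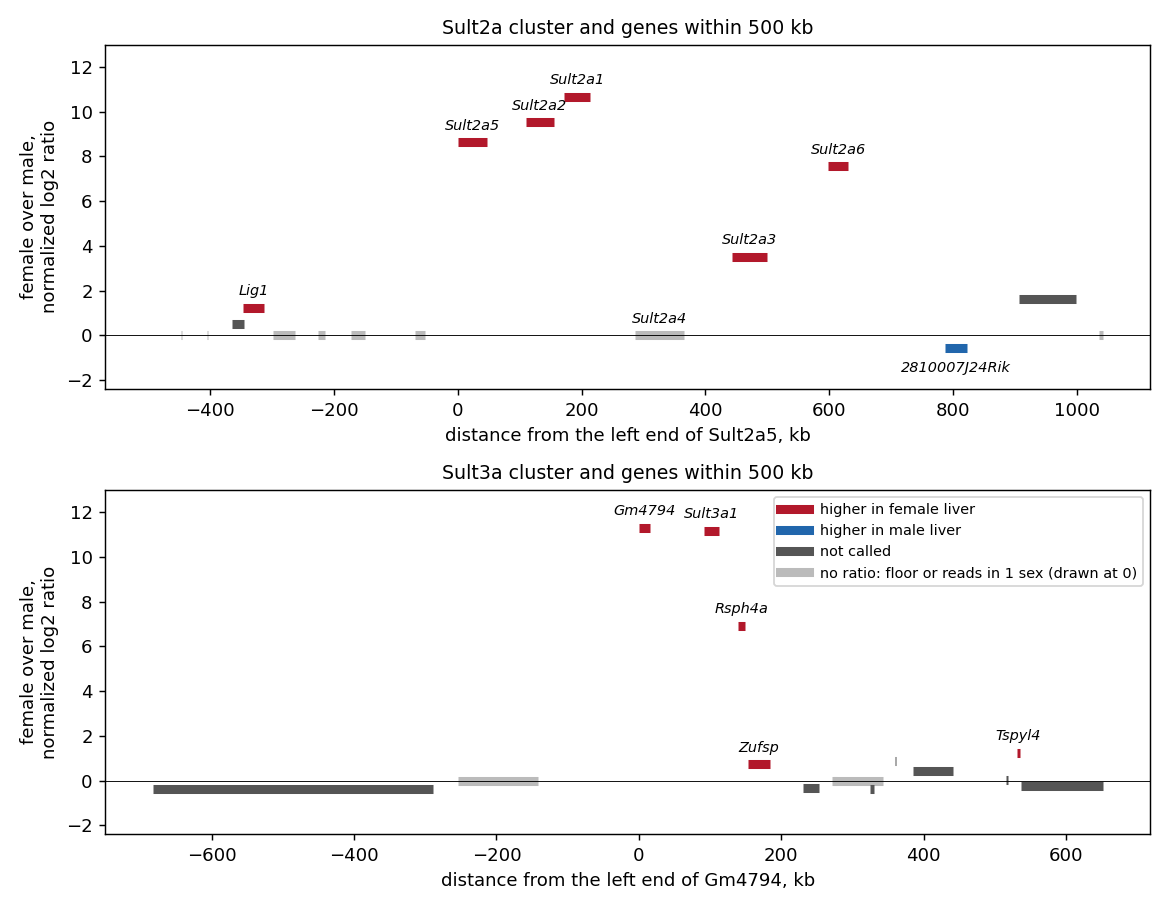
Normalized log2 ratio of female over male liver (vertical axis) for each gene around the Sult2a genes (top) and the Sult3a genes (bottom), drawn along its span in kb from the left end of Sult2a5 or Gm4794; red genes were higher in female liver, blue in male liver, dark grey genes were not called and light grey genes had no ratio and are drawn at 0. Rsph4a lies beside Sult3a1 with a ratio of 6.93, drawn at the authors' value although no male reads were implied, and 2810007J24Rik lies below 0 beyond Sult2a6.

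Promoter windows are shown because 5 of the 7 genes have one in the RefSeq table (build GRCm38.p6, another build than that of the levels) and because these genes shared their direction. Sult2a1 and Sult2a2 have no entry there. The 250 bases before the annotated start are printed 5′ to 3′ on the strand of the gene. In the Sult2a genes the capitals mark the longest run that Sult2a3, Sult2a5, Sult2a6 and Sult2a4 all hold. In Sult3a1 they mark matches to TTCNNNGAA (the STAT motif) and ATTGAT (the core bound by CUX and ONECUT factors), and in Gm4794 a match to GTTAAT (an HNF1 half-site). The windows are chr7:13623717-13623966 on the plus strand for Sult2a5, chr7:14254871-14255120 on the minus strand for Sult2a6, chr7:14123049-14123298 on the minus strand for Sult2a3, chr10:33857472-33857721 on the plus strand for Sult3a1 and chr10:33782116-33782365 on the minus strand for Gm4794.
Sult2a5: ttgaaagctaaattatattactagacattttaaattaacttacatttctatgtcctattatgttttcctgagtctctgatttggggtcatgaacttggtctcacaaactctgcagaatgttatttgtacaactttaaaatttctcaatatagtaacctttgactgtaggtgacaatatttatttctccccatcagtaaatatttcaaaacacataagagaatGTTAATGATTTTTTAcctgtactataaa
Sult2a6: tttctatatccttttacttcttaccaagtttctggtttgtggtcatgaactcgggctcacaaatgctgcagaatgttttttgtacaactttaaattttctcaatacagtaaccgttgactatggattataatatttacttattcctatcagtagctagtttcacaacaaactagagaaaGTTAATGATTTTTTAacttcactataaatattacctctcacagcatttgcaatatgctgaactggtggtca
Sult2a3: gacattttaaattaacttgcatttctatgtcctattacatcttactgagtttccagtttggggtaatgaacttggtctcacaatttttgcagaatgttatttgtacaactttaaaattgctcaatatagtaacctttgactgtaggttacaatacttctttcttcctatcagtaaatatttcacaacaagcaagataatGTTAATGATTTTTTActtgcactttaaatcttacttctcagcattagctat
Sult3a1: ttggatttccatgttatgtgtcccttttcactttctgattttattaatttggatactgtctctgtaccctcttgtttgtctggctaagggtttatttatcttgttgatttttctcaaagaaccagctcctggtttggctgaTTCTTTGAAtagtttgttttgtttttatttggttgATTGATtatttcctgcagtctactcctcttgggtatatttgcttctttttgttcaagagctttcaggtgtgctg
Gm4794: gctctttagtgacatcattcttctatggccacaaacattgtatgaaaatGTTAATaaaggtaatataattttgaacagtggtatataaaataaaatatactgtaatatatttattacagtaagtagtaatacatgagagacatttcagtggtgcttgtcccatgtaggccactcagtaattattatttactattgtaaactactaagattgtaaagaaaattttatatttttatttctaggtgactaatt

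The Sult2a windows resembled each other over most of their length. Sult2a5 and Sult2a3 were 87.4% identical along 277 aligned columns of the 300-base windows, and Sult2a5 and Sult2a6 79.9% along 259. The shared run of 15 bases, GTTAATGATTTTTTA, begins 28 bases before the start of Sult2a5, 71 before that of Sult2a6, 51 before that of Sult2a3 and 107 before that of Sult2a4. Of all 32851 windows of 250 bases in the table, 4 hold this run on either strand, and these are the 4 Sult2a windows. The run was chosen as the longest that these 4 similar windows share, so this count shows nothing about its role. Sult2a4 holds the run too and had 5 reads in all. Neither of the 2 windows of 2810007J24Rik holds it. Sult3a1 and Gm4794, despite their similar transcripts, aligned along only 38 columns of their windows (68.4% identity).

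6 motifs were searched on both strands of the 300-base windows. GTTAAT, with which the shared run begins, was in 4 of the 5 windows of these genes (Sult3a1 lacked it) and in 7.10% of all windows. TATAAA was in 3 of 5, those of Gm4794, Sult2a5 and Sult2a6, and in 13.6% of all. The Sult2a windows are similar in sequence, so their matches to GTTAAT and TATAAA are not independent of each other. The counts over the 5 windows therefore cannot be set against the shares of all windows as separate cases. TTCNNNGAA, which reads the same on both strands, was found in Sult3a1, 109 bases before its start, and in 8.30% of all windows. ATTGAT was also found in Sult3a1, 74 bases before the start, and in 7.54% of all windows. TGTTTNC, a forkhead motif, was in Sult2a5 and in 20.5% of all windows, and AGGTCA, the half-site of nuclear receptors, was in none of the 5 and in 16.3% of all. These are matches of letters, and no binding was measured.

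Other sulfotransferase genes were mixed in direction. Of 15 listed genes 13 were in the table and 10 could be compared; 4 were higher in female liver, 2810007J24Rik in male liver, and 5 did not pass. The median log2 ratio was -0.21. Of all compared genes, 10.2% were higher in female and 7.21% in male liver. Sult1e1, the estrogen sulfotransferase gene, had no implied male reads and 26 in female liver, which puts the female level at least 6.62-fold above the floor of 3 reads, or 5.01-fold with counting error in both sexes (adjusted p = 4.04e-05 in the authors' deposited table). Sult1a1, which sulfates phenols, had 6.78 log2 RPKM in male and 8.00 in female liver (2.48-fold in the authors' deposited table, adjusted p = 1.15e-11). Sult1d1 (2.39-fold) and Sult1c2 (2.00-fold) were also female-higher, by the authors' deposited table. Sult5a1 was about as abundant as Sult1d1, with 6.31 log2 RPKM in male and 6.42 in female liver (adjusted p = 0.873 in the authors' deposited table).

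Genes that supply the sulfonate donor mostly did not pass the test, nor did 11363 of all 13762 compared genes. Of 10 compared genes for PAPS synthesis, PAPS and sulfate transport and sulfite oxidation, no gene passed as male-higher, against 7.21% of all. Their median log2 ratio was -0.01. Female-higher was 1 of them, against 10.2% of all compared genes. The one was Papss2, a PAPS synthase gene, with 5.97 log2 RPKM in male and 6.97 in female liver (2.07-fold in the authors' deposited table, adjusted p = 3.71e-08). Suox, the sulfite oxidase gene, had 5.56 in male and 5.92 in female liver (adjusted p = 0.0685 in the authors' deposited table).

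Sulfatases, which remove sulfate groups, and the proteins that activate or resemble them were 12 in the comparison. Of these, 1 passed as female-higher and 2 as male-higher, against 10.2% and 7.21% of all compared genes. The list had a median log2 ratio of -0.01. Arsa, an arylsulfatase gene, was 2.63-fold (adjusted p = 4.64e-09) and Arsg 1.40-fold higher in males (adjusted p = 0.0200), by the authors' deposited table. Sulf2, an extracellular sulfatase gene, was 1.35-fold higher in females by the authors' deposited table (adjusted p = 0.0483). The steroid sulfatase gene Sts was not analysed here.

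Carriers of steroid sulfates and other organic anions differed in direction. Of 12 compared, 1 passed as female-higher and 2 as male-higher, against 10.2% and 7.21% of all compared genes. Their median log2 ratio was 0.28. Slco1a4, an uptake transporter gene, rose from 4.11 log2 RPKM in male to 5.74 in female liver. Its paralog Slco1a1 stood at 8.77 in male and 7.65 in female liver, and the efflux pump gene Abcg2 at 5.48 and 4.18. The authors' deposited table gives adjusted p-values of 4.74e-15, 2.57e-09 and 9.72e-11 for the 3 genes.

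Of 26 regulators that are known to act on sex-biased or sulfotransferase genes in liver, 6 were higher in female and 7 in male liver. The shares over all compared genes were 10.2% and 7.21%. The regulators had a median log2 ratio of -0.002. Cux2, a transcription factor gene known as female-specific in mouse liver, had -2.85 log2 RPKM in male and 2.13 in female liver (36.3-fold in the authors' deposited table, adjusted p = 2.89e-36). Trim24 was 3.53-fold and Prlr, the prolactin receptor gene, 2.97-fold higher in females, and Bcl6, a repressor gene, 2.20-fold higher in males, by the authors' deposited table. The nuclear receptor gene Nr1i3, whose product is known to induce sulfotransferases, was 1.35-fold higher in female liver (adjusted p = 0.0248 in the authors' deposited table), and Stat5b, which carries the growth hormone signal, had 3.92 log2 RPKM in both sexes (adjusted p = 0.827 in the authors' deposited table).

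**Figure D4:**
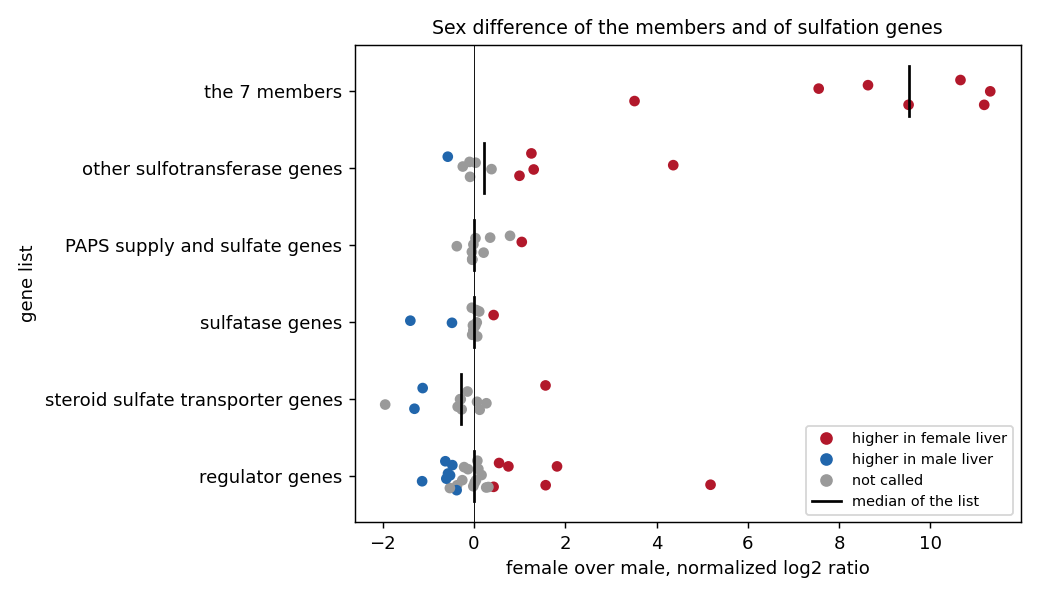
Normalized log2 ratio of female over male liver (horizontal axis) for the 7 genes described here and each compared gene of 5 lists around sulfation. Red points were higher in female liver, blue points higher in male liver and grey points not called. Black bars are medians. The 7 genes lie between 3.52 and 11.31, to the right of nearly all points of the other lists, of which Cux2 (5.18) and Sult1e1 (4.37) reach the furthest. Genes with no implied male reads are drawn at the authors' ratio, which lies above their bound. Sult2a3 is drawn at a log2 ratio of 3.52, which is 11.5-fold, and has a bound of 3.56-fold. Sult1e1 is drawn at 4.37, which is 20.6-fold, and has a bound of 6.62-fold.

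Labels, tissue and depth were checked once. Xist was higher in female liver, and all 4 compared genes of the Y chromosome were higher in male liver. The 6 hepatocyte markers summed to 42500 RPKM in male and 58900 RPKM in female liver. Most of that sum was Alb, which was female-higher (14.82 log2 RPKM in male and 15.52 in female liver), while Apoa1 was male-higher (12.68 and 12.09) and the other 4 did not pass. All 4 kidney markers were at the floor in both sexes. The 4 adrenal cortex markers, from another organ that expresses steroid enzymes, summed to 0.927 and 0.935 RPKM. Small intestine markers summed to 103 and 96.9 RPKM, nearly all of it from Fabp2, and 2 of the 4 were at the floor in both sexes. Markers of Kupffer, endothelial and stellate cells were higher in female liver in 2, 1 and 3 of 5 genes, by 1.78-fold at most. Among 5 cholangiocyte markers, 1 was higher in each sex. Beside these small counts, 10.2% of all compared genes were female-higher and 7.21% male-higher. The part of these cells in the results was not tested. The levels imply depths of 11241814 reads for male and 14719686 for female liver.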

How the data were processed

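Poly-A RNA of 2 male and 2 female liver pools was sequenced, per the labels' protocols. Bowtie, edgeR and build mm9 stand in the submitters' processing notes, with no version and no stated role. The way reads were assigned to genes is not given in the sources used. The deposited table holds, per the file headers, a log2 RPKM for each sex, a normalized log2 ratio by the authors, their linear ratio, their signed fold change (a score) and an adjusted p-value whose method is not stated. No pool has values of its own, so the test planned for counts was replaced by the authors' adjusted p-value under 0.05.

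A difference of 0.389 between the log2 levels of both sexes with a ratio of 1 marks the floor (6590 genes); 1460 genes with a ratio of 1 had reads in 1 sex only. The remaining 13762 genes with a level were compared. The p-values of genes at the floor were disregarded. Depth was recovered from 1050 olfactory receptor genes at the floor, taking the added value as 1 read. Implied male reads of a gene are the nearest whole number, given the best matching transcript length in GENCODE vM21; the misfit was at most 3.07% for the 7 genes except Sult2a3 (18.6%), whose ratio equals the plain difference of levels as in other genes without male reads. Intervals are exact (Clopper-Pearson). The recovery and the intervals were run on data simulated under the same assumptions. That run checks the calculation only, and cannot test the added value of 1 read, the transcript lengths or the independence of reads. Python 3.11.15, pandas 2.3.3, scipy 1.17.1 and Biopython 1.88 were used. Sequences were aligned locally with a match score of 1 and a mismatch score of -1.

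The genes and lists were chosen with earlier results of these data known. Named genes are the 7 members, up to 4 called genes per list by size of ratio (or the 2 most abundant), the nearest genes beside each cluster, the 2 most alike genes per member (1 of them is not reported here), Xist and Y-linked genes; Sult5a1, Nr1i3 and Stat5b were added after their values were seen. Alternatives were the plain difference, an adjusted p-value under 0.01, expressed genes only, other neighbour windows and shorter promoters.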

Additional observations from a re-analysis of the deposited data

How the results depend on the processing

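All 7 genes described here were also higher in female liver by the plain difference of levels and at an adjusted p under 0.01. Neither setting could change this count. The largest adjusted p of the 7 was 0.000332 (Sult2a3, in the authors' deposited table), and the plain difference keeps the same p-values and levels. The median log2 ratio of the 7 genes was -8.63 with Sult2a1, Sult2a2 and Sult2a3 at their bounds. It was -10.09 among the 6 genes that reach 1 log2 RPKM in a sex, a filter they pass through female liver alone and which therefore shows nothing about stability. The other sulfotransferases had a median of 0.02 among expressed genes. At an adjusted p under 0.01, 0 of 12 compared sulfatase genes were female-higher and 1 male-higher. The 26 regulators fell to 4 female-higher and 4 male-higher. Shares over all compared genes were not computed at this threshold. Within 250 kb of the Sult2a genes 1 neighbour was compared, and it was male-higher. Of 5 compared within 250 kb of the Sult3a pair, 2 were female-higher and 0 male-higher. Within 1000 kb of the Sult2a genes 19 were compared, with 2 female-higher and 2 male-higher. Around the Sult3a pair 11 were compared within 1000 kb, with 4 female-higher and 0 male-higher. Over all compared genes the shares were 10.2% and 7.21%. With the longer transcript of Sult3a1 (1154 bases), whose length matches a whole number of reads less closely and which was chosen after seeing the data, 7 male reads are implied and its counting interval starts at 991-fold.

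Leaving out pools, edgeR, DESeq2 and a low-count filter were not run, since the table gives 1 value per sex. No paired analysis was possible because the pools have no values of their own. Depth limits the folds: with 0, 1 or 6 male reads their upper ends are open or wide.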
